A study of Mus musculus with 4 samples.

Results

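The 36 genes described here encode the antioxidant, glutathione and NADPH systems of the mouse cell. They were taken by symbol from the 37310 genes of the expression table, as a list proposed with earlier results of these data known. By role they comprise 5 genes of the Nrf2 axis, 6 of glutathione synthesis and use, 5 of the thioredoxin system, 6 peroxiredoxins, 6 dismutases, catalase and peroxidases, 4 glutathione transferases and 4 of the pentose phosphate pathway. Expression was measured by mRNA-seq in 4 cultures of mouse embryonic stem cells (mESCs) of the JM8 line, which comes from the C57BL6/N strain: 2 wild-type cultures and 2 labelled Bmal1-/-. Bmal1 is a transcription factor of the molecular clock, and the comparison asks how mRNA levels differ in pluripotent cells without it. The Bmal1-/- cells are a single clone, isolated after CRISPR/Cas9 cutting, in which an insertion or deletion shifts the reading frame of each allele. The genotype and other properties of that clone therefore cannot be told apart. Every culture was feeder-free in 2i + LIF medium, which contains 1 µM PD0325901, an inhibitor of Mek, and 3 µM CHIR99021, an inhibitor of Gsk3.

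Nrf2, encoded by Nfe2l2, is a transcription factor that is held low by Keap1, which delivers it to the proteasome. Oxidants and electrophiles modify Keap1, and Nrf2 then accumulates and binds antioxidant response elements next to small Maf proteins. Its targets make and recycle glutathione and thioredoxin, the thiols with which peroxidases and peroxiredoxins remove peroxides. Both thiol systems draw their electrons from NADPH, which the oxidative branch of the pentose phosphate pathway supplies.

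To show regulatory DNA of members, the 250 bases before the RefSeq start (GRCm38.p6, plus strand) are printed for 4 of them. Each was picked as a member that holds a motif named here, so the 4 do not stand for the others. Gclm (chr3:122245307-122245556) and Prdx1 (chr4:116685349-116685598), whose mRNA was lower in the libraries labelled Bmal1-/-, have in capitals a match to the antioxidant response element core TGACNNNGC or its reverse complement. Srxn1 (chr2:152105274-152105523), also lower, and Glrx (chr13:75839635-75839884), higher, have in capitals the AP-1 letters TGACTCA or their reverse complement.
Gclm: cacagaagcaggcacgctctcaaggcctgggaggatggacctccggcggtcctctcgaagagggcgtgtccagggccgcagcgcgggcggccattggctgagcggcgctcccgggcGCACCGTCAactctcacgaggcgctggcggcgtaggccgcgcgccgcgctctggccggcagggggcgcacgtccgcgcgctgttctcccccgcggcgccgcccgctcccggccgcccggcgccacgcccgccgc
Prdx1: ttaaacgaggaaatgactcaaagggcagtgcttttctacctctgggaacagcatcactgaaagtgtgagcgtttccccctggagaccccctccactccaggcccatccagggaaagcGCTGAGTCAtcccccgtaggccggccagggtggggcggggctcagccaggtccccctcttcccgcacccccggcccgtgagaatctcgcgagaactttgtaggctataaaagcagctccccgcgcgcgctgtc
Srxn1: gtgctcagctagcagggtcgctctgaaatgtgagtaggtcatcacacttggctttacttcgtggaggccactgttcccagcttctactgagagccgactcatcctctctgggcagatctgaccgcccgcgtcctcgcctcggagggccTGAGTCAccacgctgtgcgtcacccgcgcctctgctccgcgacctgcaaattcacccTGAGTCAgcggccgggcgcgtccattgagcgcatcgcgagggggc
Glrx: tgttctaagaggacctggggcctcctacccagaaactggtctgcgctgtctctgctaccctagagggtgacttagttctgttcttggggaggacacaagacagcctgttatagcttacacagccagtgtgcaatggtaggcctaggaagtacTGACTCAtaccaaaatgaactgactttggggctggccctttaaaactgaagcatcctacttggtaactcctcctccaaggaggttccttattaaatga

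In the RefSeq windows of 250 bases before to 50 after a start, TGACNNNGC was found on either strand in 9 of the 31 members with an entry (29.0%), against 14.0% of 27025 genes. The 9 were G6pdx, Gclm, Mgst1, Nfe2l2, Pgd, Prdx1, Sod1, Srxn1 and Txnrd1. TGACTCA was found in 4 members (12.9%), Glrx, Gstp1, Prdx1 and Srxn1, against 5.95% of genes. Slc7a11, Txnip, Prdx2 and Gstm1, which fell past 1.5-fold, are in neither list, and Nfe2l2, which is in the first, rose. The capitals in Prdx1 hold both motifs, which overlap there, and another TGACTCA stands near the start of its printed stretch in lower case. CACGTG, the E-box letters that Bmal1 binds with its partner Clock, were found in 1 member (3.23%), Prdx4, against 8.09% of genes. These motifs were chosen with the expression values known, other spellings of the first were also tried, and a match of letters is a description and not a binding site.

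The deposited values are reads per gene divided by 1 scaling factor per library, so a value of 1 is close to 1 read. Reads on genes came to 21737170 and 21504265 for wild-type and 23329034 and 23021702 for the libraries labelled Bmal1-/-, and 3 reads correspond to values of 2.82 to 3.19. Replicates of a label were further apart than counting alone gives, at chi-square values of 2.83 and 1.84 per degree of freedom. Arntl, the gene of Bmal1, stood at 678 and 733 against 556 and 590, so its mRNA does not identify the genotype and libraries are named here by their labels. All 11 naive pluripotency markers in the table were detected, with summed values of 96008 to 96365 in wild-type and 96322 to 97207 in the libraries labelled Bmal1-/-, while singly 5 rose and 5 fell with log2 fold changes from −0.95 to 0.36. The 11 two-cell-like markers in the table summed to 337 to 416 against 4473 to 4496, and 12 primitive endoderm markers to 13341 to 13453 against 14335 to 14648, with 6 that rose and 1 that fell. Primed markers summed to 3528 to 3844 against 3438 to 3535, with 1 that rose and 3 that fell, and trophoblast markers to 663 to 670 against 566 to 568, with 1 that rose and 2 that fell. Fibroblast markers summed to 144 to 156 against 312 to 331, with Col1a2, Col3a1, Dcn, Fap, Lum and Postn at no more than 3 reads in any library. Their part in the results below was not tested.

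Most of the members had less mRNA in the libraries labelled Bmal1-/- than in wild-type, by modest amounts, and 1 gene, Glrx, had much more. This did not extend evenly to 122 further genes of these pathways, of which 51 fell and 24 rose. Of the 35 members with a mean value of at least 10, 27 fell and 4 rose at an adjusted p under 0.05 (limma with Benjamini-Hochberg adjustment over 14510 genes). The background was 28.6% of all genes tested lower and 24.0% higher. Gclc, Txnrd2, Prdx5 and Gpx4 did not pass the test, and Mgst1, a microsomal glutathione transferase, was under the limit with 2.11, 3.19, 1.88 and 0.954. The median log2 fold change of the 35 members was −0.31, and that of all genes tested was −0.03. Among the 35 tested, the 27 members that fell are also those whose libraries did not overlap between labels in that direction, which holds for 41.4% of all genes, and the 4 that rose lay apart in the other direction, which holds for 34.6%. Counts by role and labels that do not overlap, given below, are to be read against these shares of all genes. In bulk RNA, fewer cells of a type and less RNA per cell cannot be told apart.

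**Figure D1:**
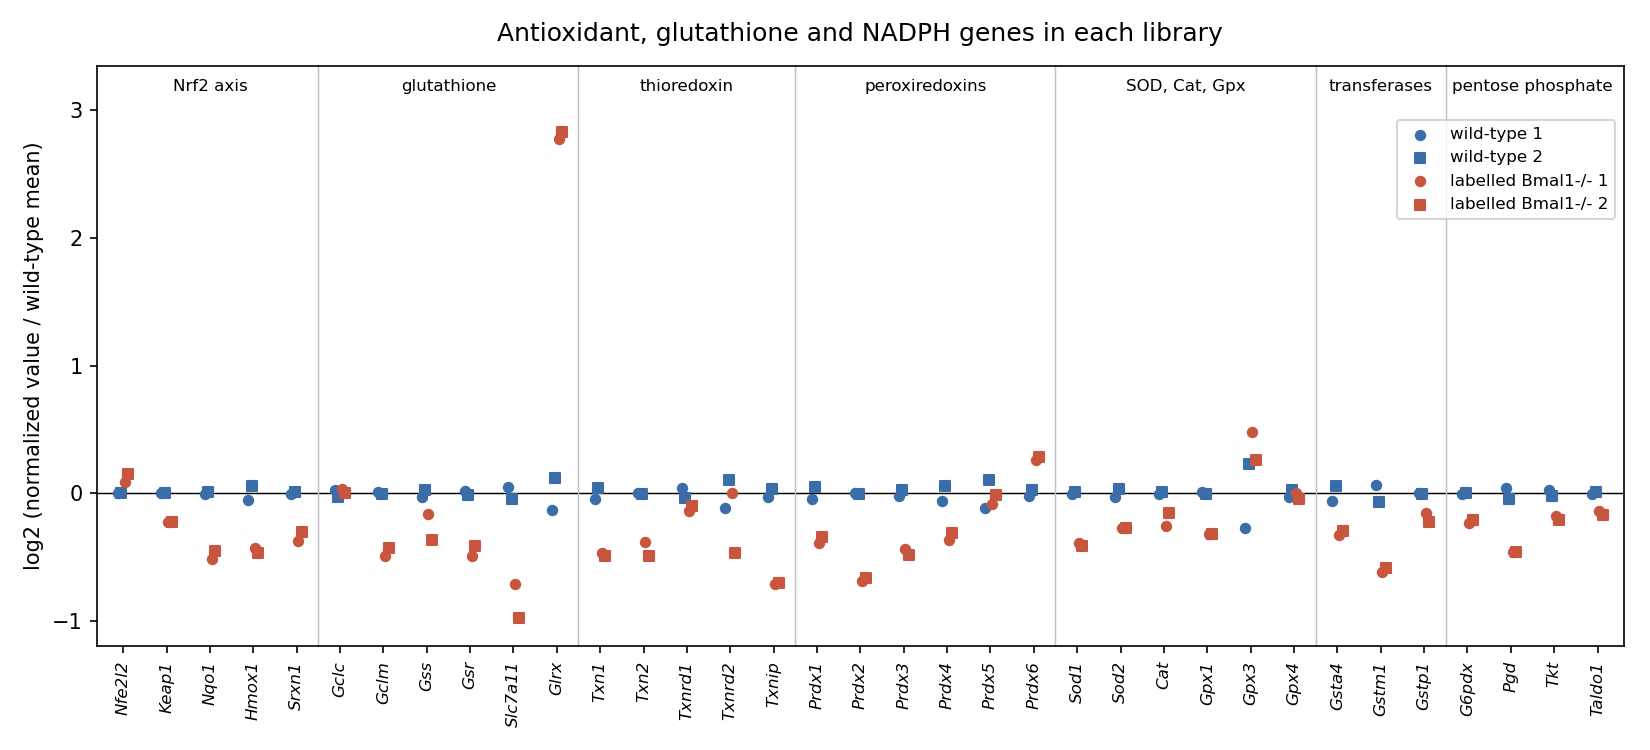
The vertical axis gives the log2 ratio of each library's normalized value to the wild-type mean of that gene, for the 35 members tested, grouped by role. Wild-type libraries are blue, libraries labelled Bmal1-/- red, and circles and squares are replicates 1 and 2. Most red points lie below the blue ones by less than 1, while Glrx lies more than 2.5 above.

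The sizes were small. Past 1.5-fold in addition to the test, 4 members fell, namely Slc7a11, Txnip, Prdx2 and Gstm1, against a background of 4.31% of all genes lower. Gstm1, at a log2 fold change of −0.60, lay just inside this limit, and Nqo1 and Txn1, both at −0.48, were the next outside it. Glrx alone rose past 1.5-fold, against 10.8% of all genes, and it was the only member past 2-fold, against 5.75%.

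Transcript length moved with the difference between the labels over the whole table. Among the 4740 genes with a mean of at least 1000, a level that 26 of the 36 members reach, Spearman's correlation of the log2 fold change with the length of the longest protein-coding transcript was 0.61. With GC content it was −0.26. Both are across genes of the same 4 libraries, and genes are not independent replicates. In this set, genes with transcripts under 1000 bases had a median of −0.32 and 93.6% of them fell, while genes of 5000 bases or more had a median of 0.15 and 9.98% of them fell. Between replicates, the median log2 ratio of the first to the second library ran from −0.03 for the shortest to 0.06 for the longest class in wild-type, and from 0.040 to −0.006 in the libraries labelled Bmal1-/-. The antioxidant genes are short, with a median transcript of 1934 bases against 2962 bases for the genes tested. Among all 35 members tested, the correlation with length was −0.05. That set also holds members with a mean under 1000, Glrx and Slc7a11 among them, so its value cannot be set against the 0.61. The part of transcript length in the members' differences was not tested beyond the correction given below.

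**Figure D2:**
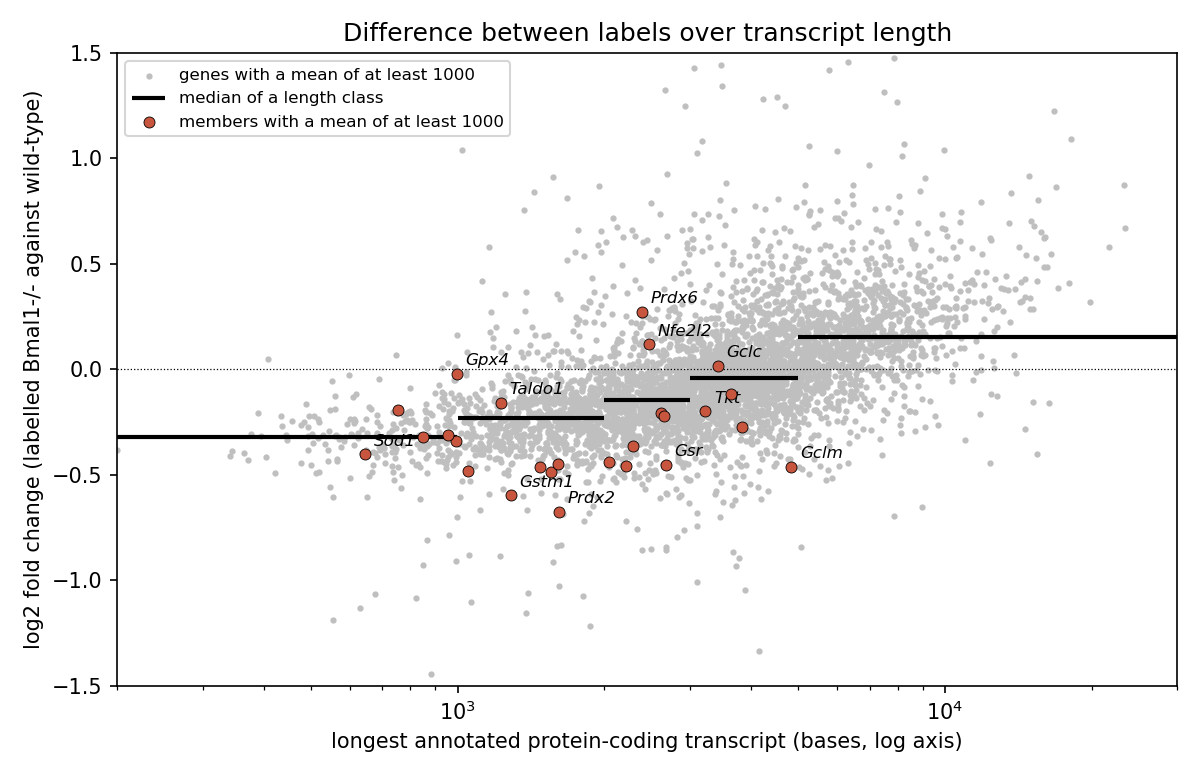
Each grey point is a gene with a mean value of at least 1000, red points are members at that level, and black bars are medians of 5 length classes. The horizontal axis is the transcript length in bases on a log scale, and the vertical axis, drawn from −1.5 to 1.5, is the log2 fold change of the libraries labelled Bmal1-/- against wild-type. The medians rise from −0.32 to 0.15 with length, and Gclm, Gsr and Prdx2 lie under the median of their class.

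The members were therefore also read against genes of like level and length. Among genes with a mean of at least 1000 and a transcript under 3000 bases, 18 of 21 members fell, where 70.3% of all such genes fell. Under 1000 bases 5 of 6 members fell, against 93.6% of such genes. From 1000 to 2000 bases it was 7 of 7 against 78.6%, and from 2000 to 3000 bases 6 of 8 against 57.8%. The members' medians in these 3 classes were −0.32, −0.48 and −0.29, against −0.32, −0.23 and −0.15 for all such genes. Among those of 3000 bases or more, 4 of 5 members fell, where 23.2% of all such genes fell. These limits were set after seeing the data. When a smooth trend over length and GC content was removed from each library, an alternative also added after seeing the data, 22 members fell, 6 rose, Prdx5 and Gpx4 in addition to the 4 above, and 7 did not pass the test. The background in that fit was 25.2% lower and 24.8% higher of 13239 genes, and the members' median was −0.14. Past 1.5-fold in that fit, Slc7a11 and Txnip fell, against 3.48% of all genes, and Glrx rose, against 10.7%. All 22 had fallen without the correction too, which holds for 20.7% of all genes. Within the shorter class, 14 of 21 members fell in the corrected fit, against 41.8% of all such genes, and within the longer class 4 of 5, against 37.4%. Under 1000 bases 2 of 6 members fell in that fit, with a median of −0.07 against −0.06 for all such genes. From 1000 to 2000 and from 2000 to 3000 bases 6 of 7 and 6 of 8 fell, with medians of −0.30 and −0.22 against −0.06 and −0.06. Below, a corrected value is the log2 fold change with this trend removed.

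**Figure D3:**
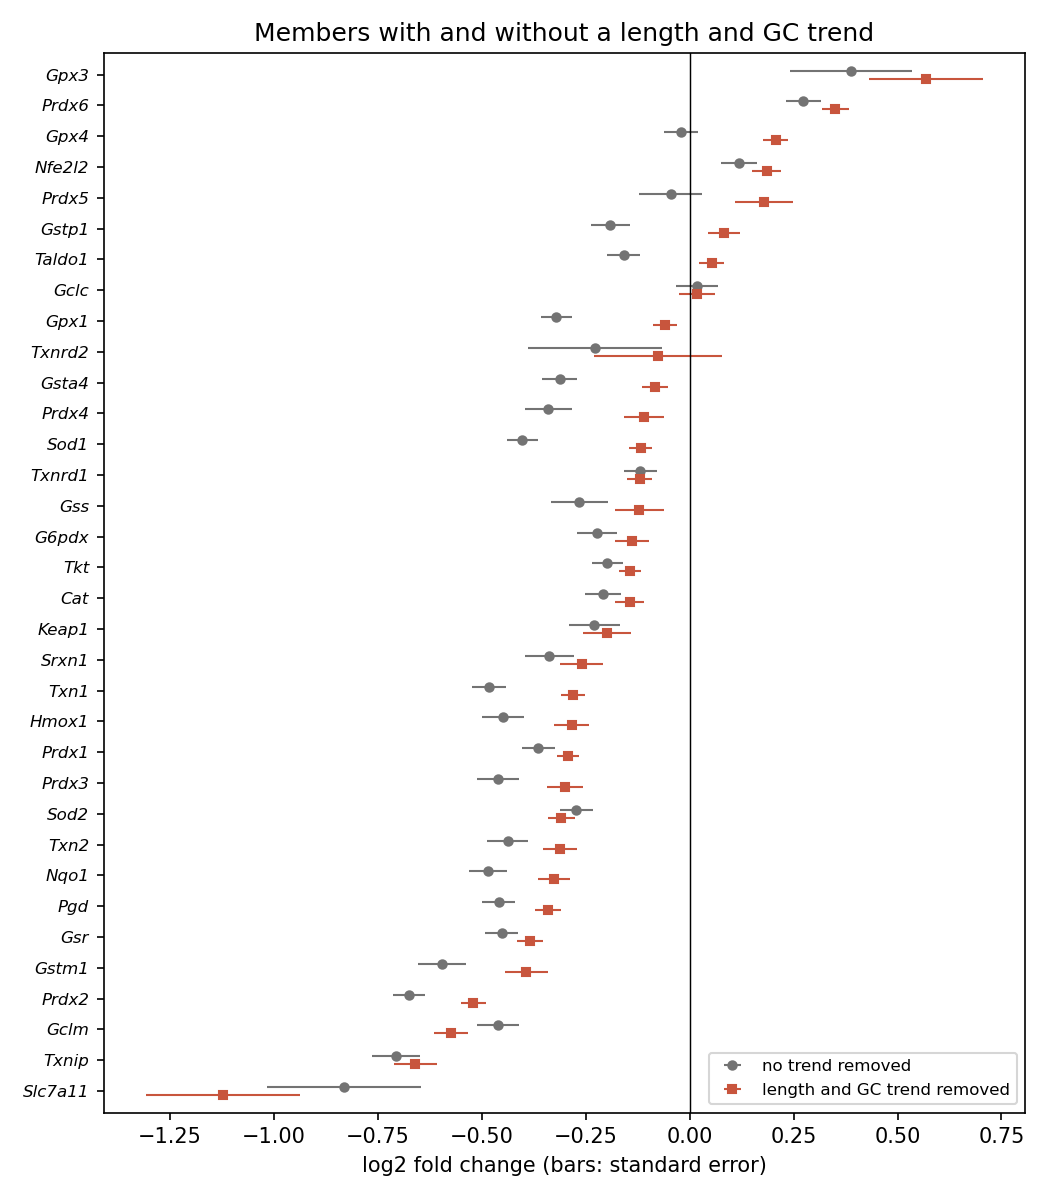
Log2 fold changes of 34 members are shown on the horizontal axis with their standard errors, without the trend removed (grey circles) and with it removed (red squares), ordered by the latter. Glrx, at 2.78 and 2.96, is left out to keep the scale. Slc7a11 and Txnip are lowest under both, and Gpx4, Prdx5, Gstp1 and Taldo1 move from below 0 to above it.

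In the Nrf2 axis the repressor and the enzymes fell while the factor's own mRNA rose slightly. Nfe2l2 stood at 3266 and 3272 in wild-type and at 3472 and 3626 in those labelled Bmal1-/- (log2 fold change 0.12 with a standard error, SE, of 0.04, limma adjusted p = 0.027). Keap1 stood at 822 and 821 against 701 and 701, or 85.3% of wild-type, a fall that did not pass the test in DESeq2 on whole reads (log2 fold change −0.20, DESeq2 adjusted p = 0.096). The labels did not overlap for either gene. The call for Nfe2l2 was lost without replicate 2 of the libraries labelled Bmal1-/-, at 0.09. It was also lost with no filter on low values, with a mean of at least 1, and in limma without the trend. The corrected value of Nfe2l2 was 0.19.

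The remaining members of this group, 3 classical Nrf2 targets, all fell, where 28.6% of all genes tested did. Nqo1, a quinone reductase, went from 2714 and 2737 to 1907 and 1989 (log2 fold change −0.48, SE 0.05, limma adjusted p = 3.3e-08). Hmox1, which breaks down haem, went from 2116 and 2286 to 1632 and 1592, or 73.2% of wild-type. Srxn1, which repairs over-oxidized peroxiredoxins, went from 1066 and 1075 to 828 and 868, or 79.2%. For each, both libraries of 1 label lay below both of the other, and the corrected values of −0.33, −0.28 and −0.26 also passed the test.

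Of the genes that make glutathione, the modifier subunit of the first enzyme fell, while the catalytic subunit did not pass the test. Gclc, the catalytic subunit of glutamate-cysteine ligase, stood at 1581 and 1521 against 1586 and 1553 (log2 fold change 0.02, SE 0.05) with overlapping labels. Gclm, the modifier subunit of the same ligase (mm9 chr3:121948475-121972902), fell from 1935 and 1920 to 1368 and 1432 (log2 fold change −0.46, SE 0.05, limma adjusted p = 1.9e-07). Its transcript has 4841 bases, and its corrected value was −0.57. The difference between the subunits was not tested by itself. Gss, which adds glycine in the last step, stood at 926 and 963 against 844 and 732. Its log2 fold change of −0.26 passed the test. It did not do so without replicate 2 of the libraries labelled Bmal1-/- (−0.16) or in the corrected fit (−0.12). The call was also lost with no filter on low values, in limma without the trend, in DESeq2 and with length alone removed.

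The mRNAs of the cystine transporter and of glutathione reductase fell too. Slc7a11, the transporter that brings in cystine in exchange for glutamate (mm9 chr3:50168858-50247535), stood at 87.4 and 81.8 against 51.7 and 42.9. Its log2 fold change of −0.83 (SE 0.19, limma adjusted p = 0.00079) was the lowest of the members tested, and its corrected value was −1.12. It was also among the least expressed, at 7.52 per kb of exon in wild-type. Gsr, the reductase that turns oxidized glutathione back with NADPH, fell from 9499 and 9319 to 6701 and 7063, or 73.1% of wild-type (limma adjusted p = 1.0e-08), with a corrected value of −0.38. The labels did not overlap for either gene.

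Glrx was the exception among all members. Glutaredoxin 1, its product, removes glutathione from protein thiols, and the gene lies on chr13:75977316-75987599 (mm9). It stood at 34.8 and 41.4 in the wild-type libraries and at 261 and 271 in the libraries labelled Bmal1-/-, a 6.98-fold higher mean and a log2 fold change of 2.78 (SE 0.15, limma adjusted p = 4.5e-12). Both libraries of 1 label were far above both of the other. Over 19 alternatives the log2 fold change lay between 2.52 and 2.97, and it passed the test in each. Of the stretches of 75 bases in its transcripts, 34.2% also occur at 1 other place, on chr13:75988004-75988512, just past the annotated end of the gene, so reads there can be shared. Even at the higher level it was a minor transcript of the group, at 28.3 per kb of exon in wild-type and 198 in the other label.

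The genes around Glrx were read in order along chromosome 13, a choice made after its value was seen. Of the 4 nearest tested genes on either side, 4 rose and 4 did not pass the test, where 24.0% of all genes rose. Arsk, an arylsulfatase about 221 kb away between starts, went from 139 and 138 to 539 and 518 (log2 fold change 1.92, SE 0.09, limma adjusted p = 8.0e-13). Ell2, Rhobtb3 and Ttc37 rose with log2 fold changes of 0.50, 0.47 and 0.22, the last of which did not pass the test in the corrected fit. Between Rhobtb3 and Arsk, Rfesd stood at 105 and 112 against 81.7 and 88.7 (log2 fold change −0.34, limma adjusted p = 0.059). Pcsk1, on the other side, was at −0.30, with an adjusted p of 0.063 from limma.

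**Figure D4:**
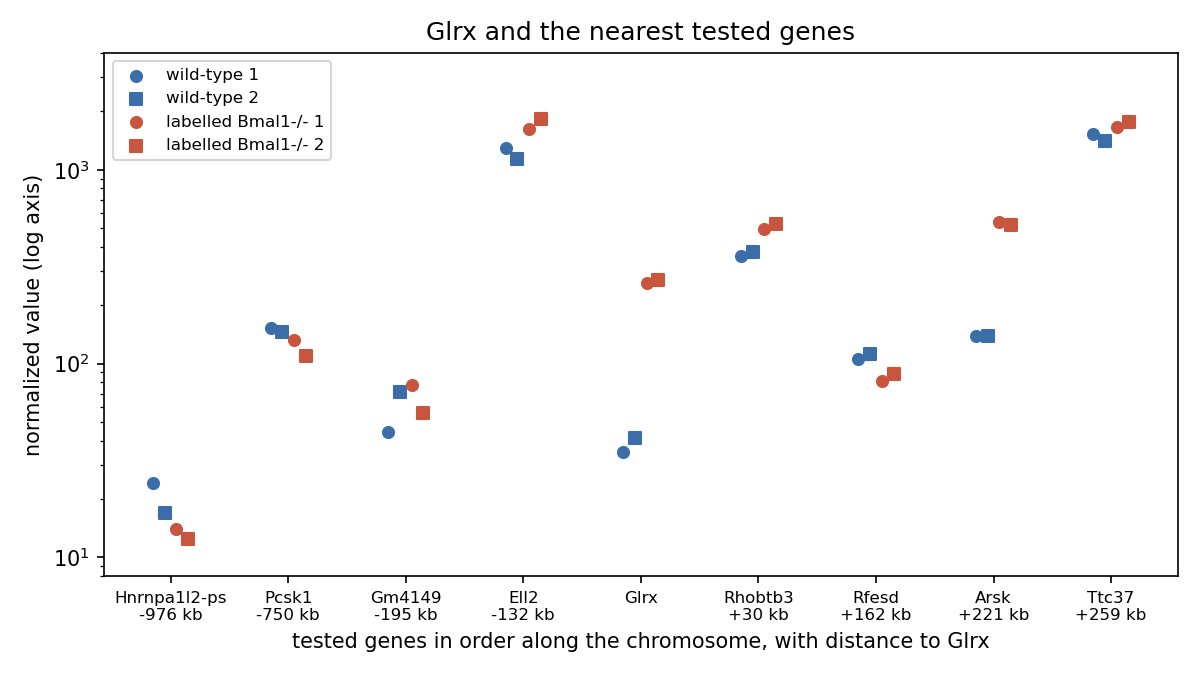
Normalized values of Glrx and the 4 nearest tested genes on either side are plotted on a log axis, in their order along the chromosome with the distance between gene starts in kb. Blue points are wild-type libraries, red points libraries labelled Bmal1-/-, and circles and squares are replicates 1 and 2. Glrx and Arsk are furthest apart between labels, and Ell2, Rhobtb3 and Ttc37 are also higher in both libraries labelled Bmal1-/-. Rfesd, which lies between Glrx and Arsk, is lower in both, as are Pcsk1 and Hnrnpa1l2-ps.

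In the thioredoxin system, both thioredoxins, their inhibitor and the cytosolic reductase fell. Txn1, the cytosolic thioredoxin, went from 9463 and 10020 to 7030 and 6915 (log2 fold change −0.48, SE 0.04, limma adjusted p = 4.1e-09). Txn2, its mitochondrial counterpart, went from 2501 and 2489 to 1914 and 1773, or 73.9% of wild-type. The corrected values were −0.28 and −0.31, and neither gene overlapped between labels. Txnip, which binds and blocks thioredoxin and also lowers glucose uptake (mm9 chr3:96361880-96365806), fell from 1163 and 1217 to 726 and 732, or 61.3% of wild-type (log2 fold change −0.71, SE 0.06, limma adjusted p = 3.8e-09). Its corrected value, −0.66, was the lowest after that of Slc7a11.

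Txnrd1, the cytosolic reductase that returns thioredoxin to its reduced form, stood at 9147 and 8687 against 8106 and 8322, or 92.1% of wild-type. Its log2 fold change of −0.12 passed the test (limma adjusted p = 0.017), but not without wild-type replicate 1 (−0.08), nor without replicate 1 of the libraries labelled Bmal1-/- (−0.10). It also missed the threshold with equal library totals, at −0.06. The same held with no filter on low values, with a mean of at least 1, in limma without the trend and in DESeq2. Txnrd2, the mitochondrial reductase, stood at 110 and 127 against 118 and 85.8, with overlapping labels and a log2 fold change of −0.23 (SE 0.16) that did not pass the test.

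Peroxiredoxins, the thiol peroxidases that use thioredoxin, fell in 4 of 6 cases, where 28.6% of all genes tested fell. All but Prdx5 have a mean of at least 1000 and a transcript under 3000 bases, a class in which 70.3% of genes fell. In the corrected fit 3 of the 6 fell and 2 rose, where 41.8% of that class fell. Prdx2, a cytosolic one (mm9 chr8:87493486-87498733), went from 10266 and 10220 to 6369 and 6462, or 62.6% of wild-type (log2 fold change −0.67, SE 0.04, limma adjusted p = 8.4e-12). Prdx1, its relative and the one with the highest level per kb of exon, went from 31007 and 33161 to 24506 and 25331, or 77.7%. Prdx3, the mitochondrial form, went from 1835 and 1892 to 1374 and 1332, or 72.6%. The labels did not overlap for these 3 genes, and their corrected values of −0.52, −0.29 and −0.30 passed the test.

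Prdx4, which works in the endoplasmic reticulum, stood at 1315 and 1429 against 1062 and 1104. Its log2 fold change of −0.34 passed the test, but the corrected value of −0.11 did not. Prdx5 stood at 579 and 675 against 592 and 620 with overlapping labels, and its log2 fold change of −0.05 turned to 0.18 in the corrected fit. Prdx6, which differs from the others in using glutathione, was the only one to rise, from 3759 and 3889 to 4580 and 4664, or 121% of wild-type (log2 fold change 0.27, SE 0.04, limma adjusted p = 1.4e-05). Its corrected value was 0.35.

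Both superoxide dismutases and catalase fell, where 28.6% of all genes tested did. Sod1, the copper and zinc enzyme of the cytosol, had the highest level per kb of the 36 members, 20905 in wild-type and 15820 in the other label, and its values went from 13439 and 13570 to 10307 and 10133 (log2 fold change −0.40, SE 0.04, limma adjusted p = 2.0e-08). Its corrected value was −0.12 for this short transcript of 646 bases. Sod2, the manganese enzyme of mitochondria, went from 6287 and 6579 to 5313 and 5336, and its corrected value of −0.31 was no smaller than the uncorrected one of −0.27. Cat, the peroxisomal catalase, went from 4477 and 4515 to 3755 and 4034, or 86.6% of wild-type, with a corrected value of −0.14. None of the 3 overlapped between labels, and 41.4% of all genes were likewise apart with the libraries labelled Bmal1-/- lower.

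The glutathione peroxidases went different ways. Gpx1, the general cytosolic one, went from 13079 and 12981 to 10457 and 10417 (log2 fold change −0.32, SE 0.04, limma adjusted p = 4.5e-07), but its corrected value of −0.06 did not pass the test. Gpx4, which reduces lipid hydroperoxides and guards against ferroptosis, stood at 6396 and 6636 against 6522 and 6325 with overlapping labels. Its log2 fold change of −0.02 (SE 0.04) turned to 0.04 with equal library totals and to 0.21 in the corrected fit, where it passed the test. Gpx3, the secreted form, stood at 116 and 165 against 195 and 168 (log2 fold change 0.39, SE 0.15, limma adjusted p = 0.031). The highest wild-type library nearly reached the lower of the other label. The call was lost without wild-type replicate 1 (0.14) and without replicate 1 of the libraries labelled Bmal1-/- (0.28). It was also lost with no filter on low values, with a mean of at least 1 and with quantile normalization. In limma without the trend and in DESeq2 it was lost too.

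Among the glutathione transferases, which attach glutathione to electrophiles, Gstm1 fell most. It went from 1520 and 1384 to 949 and 970, or 66.1% of wild-type (log2 fold change −0.60, SE 0.06, limma adjusted p = 4.0e-08), with a corrected value of −0.39. Gsta4, which handles lipid aldehydes, went from 7802 and 8474 to 6477 and 6620, or 80.5%, and its corrected value of −0.08 still passed the test in that fit but not with length alone removed (−0.07). Gstp1 stood at 2427 and 2416 against 2176 and 2069, a log2 fold change of −0.19 that passed the test without overlap of the labels but turned to 0.08 in the corrected fit. It missed the threshold without replicate 2 of the libraries labelled Bmal1-/- (−0.15), with no filter on low values and in limma without the trend. Gstp1 shares 53.6% of its 75-base stretches with other places, Gstp2 among them, which stood at 1362 and 1338 against 1388 and 1442, so the split of reads between the paralogs is uncertain.

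Sequence shared with other places also touches other members. The share of 75-base stretches found elsewhere in the genome was 55.3% for Gpx4, 20.3% for Sod2, 16.6% for Gstm1, 12.1% for Sod1 and 5.59% for Prdx2. It was at most 3.87% for Prdx1, G6pdx, Taldo1, Slc7a11 and Gclm, and 0 for the other members except Glrx and Gstp1. How reads that match several places were counted is not given in the sources used here.

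All 4 pentose phosphate enzymes fell, to between 72.7% and 89.6% of the wild-type mean, although Taldo1 turned in sign in the corrected fit. Of all genes tested, 28.6% fell. Of these enzymes, all but Tkt have a mean of at least 1000 and a transcript under 3000 bases, a class in which 70.3% of genes fell. In the corrected fit 3 of the 4 fell, against 25.2% of all genes and 41.8% of that class. Pgd, which makes NADPH in the oxidative branch, went from 9574 and 9035 to 6768 and 6765 (log2 fold change −0.46, SE 0.04, limma adjusted p = 8.6e-09), with a corrected value of −0.34. G6pdx, the entry enzyme of that branch, went from 2064 and 2076 to 1757 and 1791, or 85.7%. Tkt, a transketolase of the branch that rearranges sugars without NADPH, went from 13519 and 13101 to 11735 and 11477, or 87.2%. The labels did not overlap for these 3 genes, and the corrected value was −0.14 for both G6pdx and Tkt. Taldo1, the transaldolase, stood at 6541 and 6590 against 5946 and 5819, and its log2 fold change of −0.16, which passed the test, turned to 0.05 in the corrected fit.

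Read across roles, 14 members were counted as classical Nrf2 targets: Nqo1, Hmox1, Srxn1, Gclc, Gclm, Gsr, Slc7a11, Txn1, Txnrd1, Prdx1, G6pdx, Pgd, Tkt and Taldo1. Of these 13 fell, with a median of −0.41, where 28.6% of all genes fell and 70.3% of those with a mean of at least 1000 and a transcript under 3000 bases. In the corrected fit 12 of them fell, with a median of −0.28, against 25.2% and 41.8%. Gclc, Gclm, Slc7a11, Srxn1, Txnrd1 and Tkt lie outside that class of level and length, so its shares do not match the whole list. Gclc passed the test in neither fit. The 14 were picked with earlier results of these data known, and other members may also be targets. Among 15 further Nrf2 targets, given below, 7 fell and 4 rose. In the corrected fit 5 of those fell and 8 rose. Gpx2, a target that fell, was filed with the glutathione genes below and is not among the 15, so these counts depend on the filing. Of 4 members counted as mitochondrial, Txn2, Txnrd2, Prdx3 and Sod2, 3 fell in both fits, which holds for 20.7% of all genes. This count need not hold every member present in mitochondria. In the corrected fit, the fall of Keap1, Nqo1, Hmox1, Srxn1, the thioredoxins and Prdx1 to Prdx3 kept its call, while that of Gss, Prdx4, Gpx1, Gstp1 and Taldo1 did not.

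The other genes of these pathways were taken from lists by role. Of 131 further genes in the table, 122 were tested, 51 fell and 24 rose, with a median of −0.12, where 28.6% of all genes fell and 24.0% rose. In the corrected fit 38 fell and 36 rose, with a median near 0, where 25.2% of all genes fell and 24.8% rose. The counts of single lists that follow are to be read against these shares. The test of a difference between these lists and the members was not made.

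Among 18 further glutathione genes tested, 12 fell and 6 did not pass the test, and 9 fell and 2 rose in the corrected fit. Gpx2, another glutathione peroxidase and a known Nrf2 target, fell from 2386 and 2382 to 1127 and 1093 (log2 fold change −1.10, SE 0.05, limma adjusted p = 2.5e-13) and −0.87 when corrected. Oplah, which returns 5-oxoproline to glutamate, was at −0.83. Glrx2, the mitochondrial relative of Glrx, stood at 488 and 480 against 425 and 412 (log2 fold change −0.21, limma adjusted p = 0.024), opposite in sign to that of Glrx. Ggt1, at −0.21, lost its call in the corrected fit.

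Of 15 further transferases tested, 3 fell and 1 rose, both below the shares of all genes (28.6% and 24.0%), and in the corrected fit 3 fell and 3 rose. Mgst3, a microsomal one, went from 234 and 237 to 123 and 115 (log2 fold change −0.98). Gstm2 and Gstm3, which lie in 1 cluster with Gstm1, were at −0.48 and −0.49. Gsto1, which rose, was at 0.15.

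Of 15 further Nrf2 targets, 7 fell and 4 rose, and in the corrected fit 5 fell and 8 rose. Aldh3a1, an aldehyde dehydrogenase, stood at 42.1 and 29.7 against 8.45 and 13.4 (log2 fold change −1.64), and Blvrb, a biliverdin reductase, was at −0.51. Trim16 and Akr1b8 rose by 0.71 and 0.52 on the log2 scale. Of 11 further regulators of Nrf2, 2 fell and 4 rose. Nfe2, a relative of Nrf2, stood at 56.9 and 72.2 against 119 and 121, and Bach2, a repressor of the Bach family, was at 0.64. Rbx1, part of the ligase that works with Keap1, was at −0.34, and Sqstm1, which can sequester Keap1, was at −0.25.

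Of 20 further thioredoxin genes, 8 fell and 5 rose, where 28.6% and 24.0% of all genes did, and in the corrected fit 7 fell and 5 rose. Sesn1, a sestrin, rose from 835 and 866 to 1358 and 1422 (log2 fold change 0.71, SE 0.06, limma adjusted p = 2.1e-09), and Txndc16 was at 0.57. Txnl4a and Txnl4b, thioredoxin-like proteins of the splicing machinery, were both at −0.44. Of 21 further genes of NADPH supply and the pentose phosphate pathway, 5 fell and 7 rose, and in the corrected fit 5 fell and 9 rose. Prps1, which takes ribose 5-phosphate towards nucleotides, rose from 3942 and 4117 to 6273 and 6412 (log2 fold change 0.65). Me3, a mitochondrial malic enzyme, stood at 3.16 and 6.37 against 19.7 and 40.1, and H6pd and Me2 were at −0.32 and −0.29.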

How the data were processed

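mRNA-seq of 4 libraries, 2 per label, was analysed. The authors trimmed reads with cutadapt 1.9.1, aligned them with STAR 2.5.2b to mm9 after bcl2fastq 2.18.0.12 (submitters' processing notes) and deposited 1 normalized signal per gene and library, the count divided by a TMM (trimmed mean of M values) factor. The read counter and annotation are not given in the sources used here. All values (100%) were whole multiples of 1 read (tolerance 0.01). Symbols, positions, transcript length and GC came from GENCODE on NCBIM37 (mm9). The labels call the samples biological replicates without naming separate derivations, so p-values measure only the spread between these cultures.

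Tests covered genes with a mean of 10 or more, on log2(value + 1), a scale that understates changes of low genes, with limma 3.58.1 (R 4.3.3; lmFit, eBayes with trend, 2-sided, Benjamini-Hochberg adjustment), wild-type against Bmal1-/-, with no covariate. On the whole reads, edgeR 4.0.16 (quasi-likelihood) called 7682 genes and DESeq2 1.42.0 called 5226. limma, edgeR and DESeq2 were also run on simulated counts with 200 genes changed and no length trend. Far more genes were called in these data, and the length and GC correction was not simulated. Corrected values removed a per-library loess trend (span 0.3) over log2 length and GC. Levels per kb divide the value by merged exon length. Stretches of 75 bases of the members' transcripts were matched to the genome. All members are named, and of the wider lists the 2 highest and 2 lowest called genes. Members and lists were chosen with earlier results of these data known. Alternatives were filters, pseudocounts, scalings, limma without trend, a replicate block, leaving out each library, other tools and the length corrections. Python 3.11.15, numpy 2.4.6, pandas 2.3.3 and matplotlib 3.10.9 were used. The floor of 3 reads covers counting error only. Experiments other than mRNA-seq were not analysed here.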

Additional observations from a re-analysis of the deposited data

How the results depend on the processing

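Over 19 alternatives, 3 of them added after seeing the data, 664 refitted member values comprised 597 with the same call, 49 that lost it and 18 that changed sign. With no filter on low values, 1 member rose, 12 fell and 3 were past 1.5-fold. Of all 37310 genes in that fit, 1161 rose and 1061 fell. With a mean of at least 1, 2 members rose and 26 fell, and of 19372 genes 3316 rose and 3604 fell. In limma without the trend, 2 members rose and 21 fell, and of 14510 genes 2545 rose and 2515 fell. The calls of Nfe2l2, Gpx3, Gss, Txnrd1, Cat, Gstp1, Tkt and Taldo1 were lost there. The median was −0.25 with equal library totals and with quantile normalization, and −0.14 with the length trend or the length and GC trend removed, where 3 members were past 1.5-fold. The causes were not tested. With each library left out in turn, 3 to 4 members rose, 25 to 27 fell, 4 to 6 were past 1.5-fold, and the median lay between −0.34 and −0.25. A label left with 1 library was assumed to vary like the other.

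Signs changed as follows. With equal library totals Prdx5 was at 0.0146 and Gpx4 at 0.040, and with quantile normalization Gpx4 was at 0.034. In edgeR and DESeq2 Gpx4 was at 0.00366 and 0.011. With libraries left out in turn, Gclc ran from −0.011 to 0.045, Txnrd2 from −0.46 to 0.0022, Prdx5 from −0.16 to 0.064 and Gpx4 from −0.047 to 0.00613. With the length trend removed, Prdx5, Gpx4, Gstp1 and Taldo1 were at 0.16, 0.22, 0.070 and 0.050, and with GC too at 0.18, 0.21, 0.083 and 0.053.

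The balance of all calls moved with the settings: 45.7% of the 7639 called genes were higher with the authors' factors, 56.8% of 7394 with equal library totals, 44.3% with quantile normalization, 52.3% with no filter, 39.7% with a mean of at least 100 and 50.3% without the limma trend. Equal library totals moved the median of all genes from −0.03 to 0.03. In DESeq2, 24 members fell and 3 rose, with the calls of Keap1, Gss, Txnrd1 and Gpx3 lost. Of all 14510 genes in that fit, 2536 fell and 2690 rose. The replicate number, as a replicate block, gave 27 lower and 4 higher members and 7949 called genes, 4332 lower and 3617 higher. Libraries with the same number did not deviate together (correlation −0.02), so they were not treated as pairs. With 2 libraries per label, Slc7a11, Txnrd2, Glrx and Gpx3 had the largest standard errors, 0.19, 0.16, 0.15 and 0.15, and Slc7a11 lost its call with no filter on low values.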

Other observations

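Methionine sulfoxide reduction and selenoproteins were read from lists by role. Msrb2, a mitochondrial methionine sulfoxide reductase, stood at 545 and 580 in wild-type and at 264 and 263 in those labelled Bmal1-/- (log2 fold change −1.09, SE 0.08, limma adjusted p = 7.4e-10). Its relative Msrb3 stood at 25.3 and 19.1 against 47.9 and 53.4 (log2 fold change 1.17). The labels did not overlap for either gene. Of the 9 genes tested in that list, 6 fell and 2 rose, and in the corrected fit 2 fell and 3 rose. Oxr1, which protects against oxidative damage, was at 0.27, and Romo1, a mitochondrial membrane protein, lost its call of −0.47 when corrected (−0.20).

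Of 14 further selenoprotein genes tested, 8 fell and 1 rose, where 28.6% of all genes fell and 24.0% rose. In the corrected fit 3 fell and 2 rose, where 25.2% and 24.8% of all genes did. Sepp1, the selenium carrier, stood at 21.1 and 26.6 against 9.39 and 5.72, and Sepn1, which rose, at 85.3 and 103 against 157 and 143. Sephs1 and Sephs2 were at −0.32 and −0.13, and corrected at −0.45 and 0.08, so that only the first kept its call.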
